A study of Mus musculus with 8 samples.

Results

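The receptor genes for steroid hormones were described in somatostatin (SST) neurons of the mouse tuberal nucleus (TN), a hypothalamic region that regulates feeding. The members were *Esr1* (estrogen receptor alpha), *Esr2* (estrogen receptor beta), *Gper1* (a G protein-coupled receptor for estrogens), *Pgr* (progesterone receptor), *Nr3c1* (glucocorticoid receptor) and *Nr3c2* (mineralocorticoid receptor). They were chosen by name, as 6 of the 35968 genes to which the transcripts of the files could be joined, and all 6 passed the count filter that left 15194 genes for testing. RNA came from 4 female and 4 male *Sst-Cre* mice (genotype Ssttm2.1(cre)Zjh/J / +, so that all 8 carried the same Cre allele), each injected in the TN with AAV2-flex-tdTomato (addgene#28306). This virus makes the red protein tdTomato in Cre-expressing cells alone, and red, live, nucleated cells were sorted from the dissected TN, 1 library a mouse. By the study's general statement on its animals, females were cycling and males had intact gonads. The estrous stage and the age of these mice were not given in the sources used here. Cre is made from the *Sst* locus, so the mark depends on *Sst* expression after injection, and the virus can reach SST neurons of the neighbouring arcuate nucleus.

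All of these proteins but the product of *Gper1* are nuclear receptors. Steroids cross the cell membrane, bind the receptor, and the receptor then binds DNA through a domain of 2 zinc fingers and changes transcription. Estrogen receptors read one DNA element, and the progesterone, glucocorticoid and mineralocorticoid receptors share another. Corticosterone occupies the mineralocorticoid receptor at low concentration and the glucocorticoid receptor at stress concentrations. *Pgr* is itself a textbook target of estrogen receptor alpha in hypothalamic neurons. *Gper1* encodes a membrane protein of a different family and has no zinc fingers.

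The cells were checked against markers. *Sst* stood at 420 ± 100.3 counts per 1000000 (CPM; SD, n = 4) in females and 335 ± 38.2 in males, and all 9 neuronal markers were measured. Markers of other cells were present too: the 5 microglial genes summed to between 215 and 1391 transcripts per 1000000 (TPM) in females and between 508 and 2653 in males. The 5 astrocytic genes summed to between 251 and 501 and between 463 and 639, and the 5 oligodendrocytic genes to between 302 and 1260 and between 448 and 1163. The 9 neuronal genes summed to between 1970 and 2762 TPM in females and between 1484 and 1971 in males. The highest male microglial sum thus exceeded the highest male neuronal sum. Sums over different genes do not give shares of cells, and which cells the receptor reads came from was not tested. None of the 9 neuronal, 5 astrocytic, 5 microglial, 5 oligodendrocytic or 4 endothelial markers differed between the sexes in edgeR's quasi-likelihood test after adjustment over all genes, although 9 of these 28 had an unadjusted p under 0.05, against 20.5% of all genes. Their log2 differences had a direction: all 9 neuronal markers had higher CPM in females (median 0.14), and all 5 astrocytic (median -0.53), 5 microglial (-1.42) and 5 oligodendrocytic (-1.03) markers lower CPM, against 49.4% of all genes higher in females. Among the 28 markers, only *Snap25*, *Syt1* and *Rbfox3* had CPM that did not overlap between the sexes, against 10.4% of all genes. Their log2 differences were 0.48, 0.55 and 0.68 (smallest edgeR adjusted p = 0.0655). The libraries held estimated counts of 7.83 to 17.6 in units of 1000000. As libraries are bulk, a lower share of expressing cells and less RNA per cell cannot be told apart, and replicates are separate mice.

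In every mouse *Nr3c1*, *Esr1*, *Nr3c2* and *Pgr* lay above 13 TPM and *Gper1* and *Esr2* below 5 TPM. TPM corrects counts for transcript length, so it was used to compare genes with one another, and CPM to compare mice. *Nr3c1* ranked first in all 8 mice, with 71.3 ± 6.29 TPM (SD, n = 8), which placed it 2453rd of all genes by mean TPM. Over transcripts of at least 1000 bases, an alternative added after the values were seen, *Esr1* stood above it in females 2 and 4. *Esr1* averaged 40.4 ± 20.8 TPM, *Nr3c2* 23.8 ± 4.93 and *Pgr* 21.6 ± 3.40. *Gper1* (1.60 ± 1.39 TPM) and *Esr2* (0.653 ± 0.307 TPM) lay far below and rested on few reads.

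**Figure D1:**
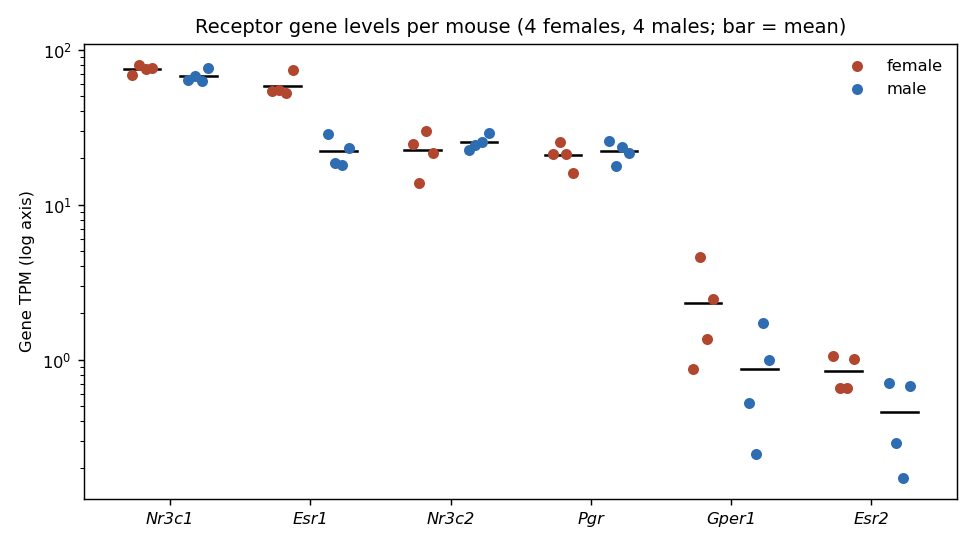
Gene TPM of the 6 receptor genes on a log axis, 1 point a mouse (red, 4 females; blue, 4 males), with a black bar at the mean of each sex. *Esr1* is the gene whose female and male points do not overlap, and *Gper1* and *Esr2* sit below 5 TPM in every mouse.

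The order of the genes was tested between neighbours, with an exact sign-flip test of the log2 ratio over 8 mice and adjustment over the 5 neighbouring pairs. *Nr3c1* exceeded *Esr1* in 8 of 8 mice, by 2.00-fold (exact adjusted p = 0.0195). That call was lost over transcripts of at least 1000 bases (6 of 8 mice, 1.66-fold, exact adjusted p = 0.0879). *Pgr* exceeded *Gper1* in 8 of 8, by 18.6-fold (exact adjusted p = 0.0195). The other neighbours did not differ beyond their spread over the 8 mice. *Esr1* was above *Nr3c2* in 5 of 8 mice (1.52-fold, exact adjusted p = 0.176). *Nr3c2* was above *Pgr* in 6 of 8 (1.09-fold, exact adjusted p = 0.461) and *Gper1* above *Esr2* in 5 of 8 (2.02-fold, exact adjusted p = 0.143). This test pools the sexes, so folds and spreads of pairs with *Esr1* include its sex difference. Mean TPM of *Nr3c1*, *Esr1* and *Nr3c2* was 74.7, 58.6 and 22.4 in females and 67.8, 22.1 and 25.3 in males.

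Over all transcripts, *Esr1* was second in all 4 females. In males *Nr3c2* was second in 3 of 4 and *Esr1* in 1. The male order rests on short *Nr3c2* transcripts: over transcripts of at least 1000 bases *Nr3c2*, at 11.7 to 14.7 TPM, stood below *Nr3c1*, *Esr1* and *Pgr* in all 4 males, and *Esr1* was second in 3 of 4. *Esr1* made up 32.5 ± 4.23% of the summed TPM of the 6 genes in females and 15.9 ± 2.94% in males (SD, n = 4 each). *Nr3c1* made up 41.6 ± 2.17% and 48.9 ± 3.27%.

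*Esr1*, on chromosome 10 (mm10, 4611593 to 5005614, plus strand), was the one receptor gene whose sex difference passed the adjusted test, and it was higher in females. In CPM, the 4 females (given here and below in the order of their replicate numbers) read 122, 124, 96.8 and 159. The 4 males read 59.4, 45.3, 42.0 and 51.8. The lowest female stood above the highest male. The difference was 1.34 on the log2 scale (SE 0.161), or 2.53-fold, with adjusted p = 0.0167 in edgeR's quasi-likelihood test. Thus 1 of the 6 receptor genes passed, against 0.158% of all genes tested in either direction and 0.112% higher in females. Likewise 1 of the 6 had CPM that did not overlap between the sexes, against 10.4% of all genes. The members were chosen with earlier results of these data known, so these shares are a description.

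The size of the *Esr1* difference held with each mouse left out (1.20 to 1.44 on the log2 scale), but the adjusted p did not always stay under 0.05. Leaving out female 2 gave an edgeR adjusted p of 0.0610. Leaving out male 2, male 3 or male 4 gave 0.0727, 0.0839 and 0.0674. With the neuronal marker mean as a covariate the difference was 1.38 (SE 0.218, edgeR adjusted p = 0.124), and with the microglial mean 1.35 (SE 0.191, edgeR adjusted p = 0.0343). Markers of 2 neighbouring nuclei were set beside it. Of 5 ventromedial nucleus genes, 4 had higher CPM in females (median log2 difference 1.05, led by *Tac1* at 1.05 and *Fezf1* at 1.92). The exception was *Nr5a1* at -0.44. Of 6 arcuate genes, 5 had lower CPM in females (median -0.77, led by *Pomc* at -1.11). The exception was *Ghrh* at 0.63. Of all genes, 49.4% were higher in females. None of these 11 genes passed the adjusted test, and their part in the *Esr1* difference was not tested.

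**Figure D2:**
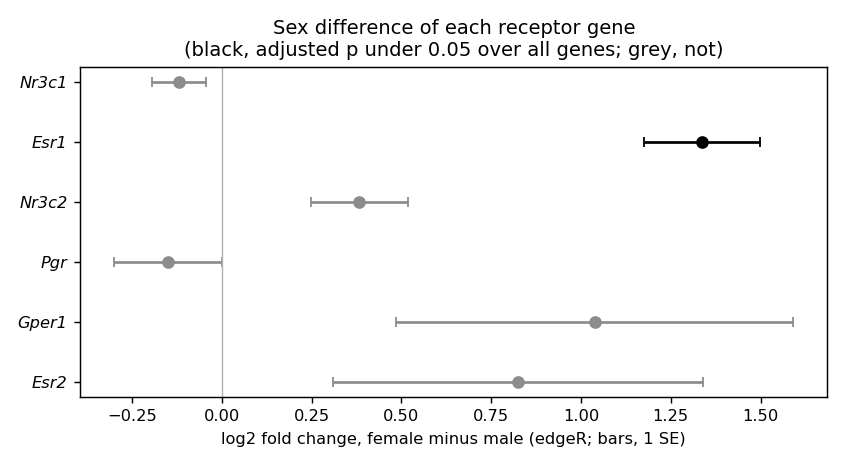
Log2 fold change of each receptor gene, female minus male, from edgeR's quasi-likelihood fit, with bars of 1 SE derived from the F statistic. *Esr1*, in black at 1.34, is the receptor gene with an adjusted p under 0.05. The grey genes did not pass, and *Gper1* and *Esr2* have the widest bars.

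*Esr2*, on chromosome 12 (76120419 to 76177259, minus strand), was read from 16, 8, 20 and 19 counts among females, against 14, 6, 3 and 10 among males. Exact 95% Poisson intervals, which cover counting error only, ran from 3.45 to 15.8 counts for female 2 and from 0.619 to 8.77 for male 3. The sexes overlapped, and the log2 difference of 0.82 (SE 0.516, edgeR adjusted p = 0.389) was not detectable at this depth. Per length, *Esr2* was a small fraction of *Esr1*. The ratio of *Esr2* to *Esr1* TPM was 0.0145 ± 0.0036 in females and 0.0197 ± 0.0088 in males (SD, n = 4). That ratio did not differ beyond the spread (exact permutation, adjusted p = 0.495 over 4 ratios).

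*Gper1*, on chromosome 5 (139423151 to 139427800, plus strand), was read from 8, 15, 31 and 33 counts among females, against 7, 4, 16 and 11 among males. CPM were 0.888, 2.29, 1.53 and 2.97 in females and 0.570, 0.367, 1.43 and 1.39 in males, so that female 1 fell among the males. The log2 difference was 1.04 (SE 0.553, edgeR adjusted p = 0.315). *Gper1* lies inside another gene, 3110082I17Rik, on the opposite strand. The strand setting of the counting was not given in the sources used here, but no stretch of 31 bases (the unit kallisto matches) in the annotated *Gper1* transcripts occurs in a transcript of another gene.

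*Pgr*, on chromosome 9 (8899833 to 8968611, plus strand), stood at 68.4, 78.7, 57.0 and 50.2 CPM in females and 80.7, 58.9, 69.2 and 72.7 in males. The sexes overlapped widely, with a log2 difference of -0.15 (SE 0.151, edgeR adjusted p = 0.603). The ratio of *Pgr* to *Esr1* separated the sexes. *Pgr* to *Esr1* TPM was 0.393, 0.462, 0.405 and 0.218 in females and 0.899, 0.965, 1.30 and 0.935 in males. No female reached a male value, and the exact permutation p was 0.0286, the smallest that 4 against 4 mice allow, or 0.114 adjusted over the 4 ratios examined. The ratio shares its denominator with the *Esr1* result and is not independent of it.

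*Nr3c1*, on chromosome 18 (39410545 to 39519421, minus strand), was the steadiest member. It stood at 151, 146, 146 and 126 CPM in females and 145, 159, 154 and 159 in males, so that the highest library was 1.26-fold the lowest, against 3.78-fold for *Esr1*. The log2 difference was -0.12 (SE 0.0758, edgeR adjusted p = 0.394). The TPM means pointed the other way, 74.7 ± 4.73 in females and 67.8 ± 6.18 in males (SD, n = 4; exact permutation p = 0.171), and over transcripts of at least 1000 bases they were 59.1 ± 7.80 and 58.9 ± 4.22.

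*Nr3c2*, on chromosome 8 (76899442 to 77245012, plus strand), stood at 45.7, 35.6, 56.8 and 47.1 CPM in females and 37.1, 33.7, 35.3 and 36.3 in males. Females 1, 3 and 4 lay above all males and female 2 among them, and females varied more (coefficient of variation 18.7%, against 4.10% in males). The log2 difference was 0.38 (SE 0.135), with an unadjusted edgeR p of 0.0189 and an adjusted p of 0.179, so it did not pass.

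On the TPM scale the *Nr3c2* means likewise turned direction, 22.4 ± 6.67 in females and 25.3 ± 2.63 in males (SD, n = 4). The 2 scales parted at short transcripts. One was Nr3c2-205, a noncoding processed transcript of 350 bases. It held 0 to 10.3 counts in females and 5.49 to 12.7 in males, yet it made 0 to 19.3% of the gene's TPM in females and 17.4 to 48.9% in males, since few counts over few bases give a high TPM. Nr3c2-207, of 270 bases, gave 6.86 TPM in male 1 from 4.44 counts and 1.53 TPM in male 2, and was at 0 in the other 6 mice. Summed over transcripts of at least 1000 bases, *Nr3c2* was 18.8 ± 3.83 TPM in females and 12.7 ± 1.41 in males (exact permutation p = 0.0571). *Nr3c1* had a similar short entry: Nr3c1-207, of 300 bases, gave 27.1 TPM in female 2 from 12.9 counts. The ratio of *Nr3c2* to *Nr3c1* TPM was therefore read over different sets of transcripts. Over all transcripts it was 0.303 ± 0.099 in females and 0.373 ± 0.023 in males (exact permutation, adjusted p = 0.495). Over transcripts of at least 1000 bases it was 0.318 ± 0.049 and 0.216 ± 0.029, with no overlap (exact permutation, p = 0.0286, adjusted p = 0.0571).

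The 6 genes have 38 annotated transcripts. For the 4 genes with at least 20 counts in every mouse, the share of the gene's TPM in each transcript was compared between the sexes wherever the mean share reached 5%, which gave 18 transcripts. Of the 18, 1 had shares that did not overlap between the sexes, against 3.20% of transcripts over all genes chosen in the same way. None passed an exact permutation test after adjustment (smallest adjusted p = 0.343), and 1 had an unadjusted p under 0.05. That one was Nr3c2-208, a transcript annotated as subject to nonsense-mediated decay, with 7.42 to 32.4% in females and 0 to 6.49% in males (exact permutation p = 0.0286). Its separation was lost in shares of counts, where female 2 was at 4.94% and male 2 at 9.07%, and in block 2 of the files alone, where female 3 was at 5.92% and male 2 at 14.1%.

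**Figure D3:**
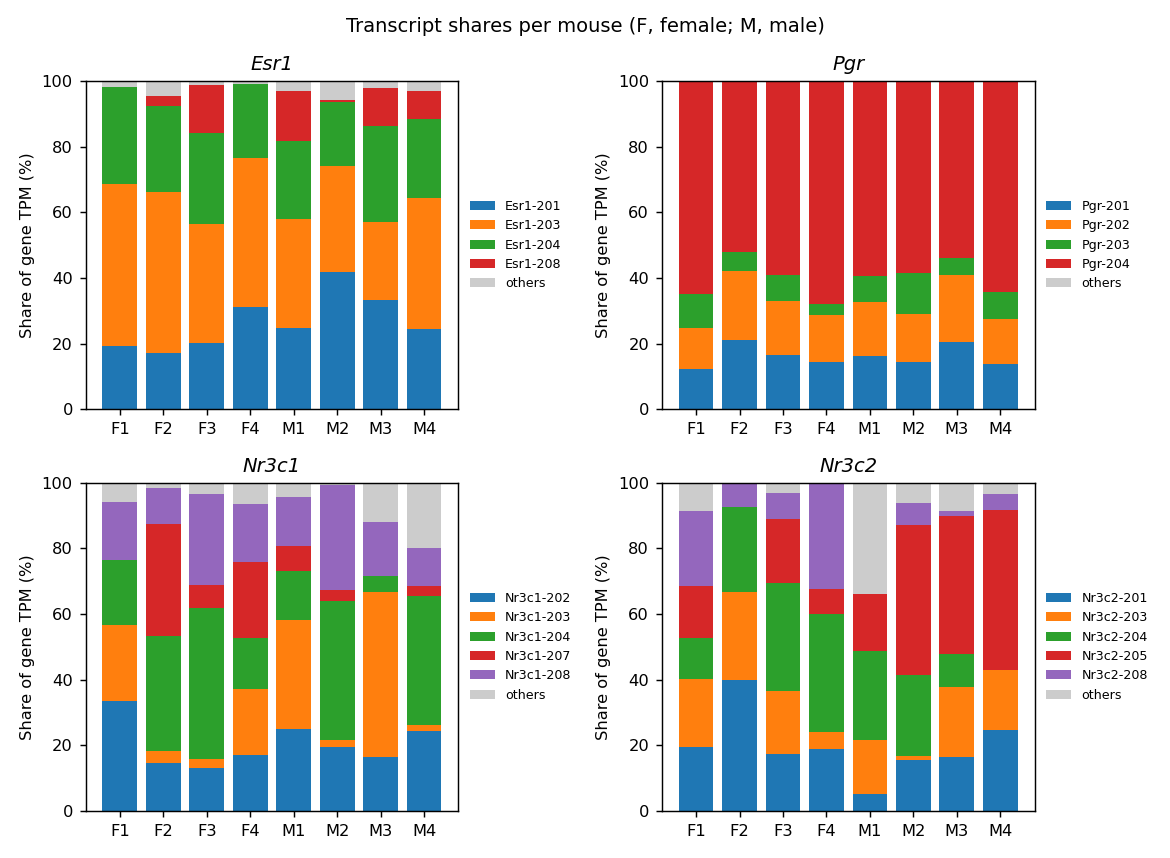
Share of each gene's TPM in its transcripts (percent), 1 bar a mouse (F1 to F4, females; M1 to M4, males), with transcripts under a mean of 5% in grey. Esr1-203 takes 36.0 to 49.5% in females and 23.8 to 40.0% in males, and the Nr3c1-203 and Nr3c1-204 segments trade places between mice.

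*Esr1* was read from 2 start regions. Esr1-201 and Esr1-204 begin at 4612021 and 4611989, and Esr1-203 begins downstream, at 4710155. All 3 carry the same number of coding bases, 1797, and differ in their first exons and in length (4344, 6339 and 2612 bases). The sequences before the 2 RefSeq starts that match these regions are shown because the *Esr1* result turns on these transcripts (GRCm38.p6, plus strand, 250 bases ending at the base before each start, CG pairs in capitals):
Esr1 upstream start, chr10:4611739-4611988: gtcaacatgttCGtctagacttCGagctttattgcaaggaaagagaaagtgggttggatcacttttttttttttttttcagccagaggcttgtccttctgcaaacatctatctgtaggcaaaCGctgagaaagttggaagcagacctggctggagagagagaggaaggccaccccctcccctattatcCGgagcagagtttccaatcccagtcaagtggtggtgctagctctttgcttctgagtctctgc
Esr1 downstream start, chr10:4709908-4710157: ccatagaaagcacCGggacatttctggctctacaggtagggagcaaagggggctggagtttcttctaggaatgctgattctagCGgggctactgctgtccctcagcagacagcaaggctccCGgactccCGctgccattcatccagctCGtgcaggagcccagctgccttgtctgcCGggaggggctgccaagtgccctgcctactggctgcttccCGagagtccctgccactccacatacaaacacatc
The upstream sequence holds 4 CG pairs and the downstream one 7. The full estrogen response element GGTCANNNTGACC, the shorter AGGTCA and the element ACANNNTGT, searched on both strands, occur in neither 300-base window around these starts. Of 32851 RefSeq promoter windows of that length, 0.0700%, 16.3% and 6.85% hold them.

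The sex difference of *Esr1* was present in transcripts of both regions. Esr1-203 stood at 26.6, 26.9, 18.9 and 33.2 TPM in females and 9.54, 5.95, 4.29 and 9.26 in males, a ratio of means of 3.64. Esr1-204 stood at 15.8, 14.4, 14.6 and 16.5 TPM in females and 6.85, 3.64, 5.24 and 5.59 in males, a ratio of 2.88. Esr1-201 stood at 10.3, 9.35, 10.6 and 23.0 TPM in females and 7.13, 7.75, 6.03 and 5.66 in males, a ratio of 2.01. With both blocks of the files averaged, the sexes overlapped in none of the 3 (exact permutation p = 0.0286 each, unadjusted). These values come from the same reads as the gene's result. Of all transcripts with a mean of at least 5 TPM, 6.56% did not overlap. In block 2 alone the sexes overlapped in Esr1-201, with 35.9 counts in female 2 and 145 in male 2. The blocks of a mouse differed by up to 20.7 percentage points in the share of Esr1-201 and 30.9 in that of Esr1-203. The share of the gene in Esr1-203 was 45.0 ± 6.26% in females and 32.3 ± 6.64% in males (SD, n = 4; exact permutation p = 0.0571, adjusted p = 0.343), so the difference in share did not pass. Esr1-203 has no 31-base stretch of its own in the gene, but 139 stretches occur in it and Esr1-202 alone. Esr1-202 held at most 4.35 counts. Esr1-201 has 27 stretches of its own.

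*Pgr* transcripts were led by Pgr-204, with 52.1 to 68.0% of the gene's TPM. Progesterone receptor is made in a long B form and a shorter A form that starts at an internal codon. Pgr-201 (2778 coding bases) and Pgr-202 (2283 coding bases) are annotated with these 2 starts, but their sequences are identical over all 3068 bases. Each was given the same count in every mouse, from 39.2 to 105, and the 2 forms therefore cannot be told apart in these files. A retained-intron transcript, Pgr-203, took 3.17 to 12.6%.

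**Figure D4:**
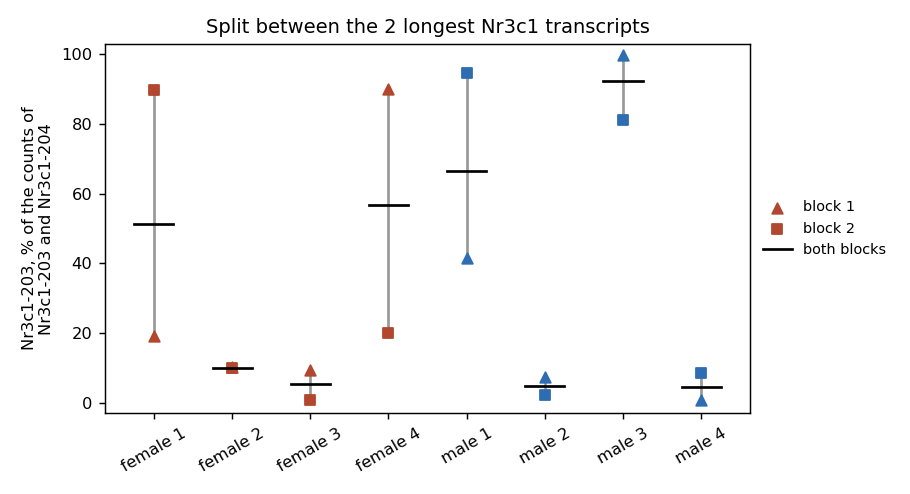
Counts of Nr3c1-203 as a percentage of those of Nr3c1-203 and Nr3c1-204 together, 1 column a mouse (triangle, block 1 of the mouse's file; square, block 2; black line, both). The percentage runs from 4.63 to 92.3 between mice, and in female 1 from 19.0 in one block to 89.8 in the other.

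*Nr3c1* was mostly assigned to Nr3c1-203 and Nr3c1-204, which together held 71.4 to 83.2% of its counts. They encode the same protein (2376 coding bases) and differ in their first exons. The part of the pair given to Nr3c1-203 was 51.4, 10.05, 5.41 and 56.9% in females and 66.5, 4.79, 92.3 and 4.63% in males. Each deposited file lists every transcript in 2 blocks of values, and the blocks of a single mouse differed by up to 70.7 percentage points in this split. Nr3c1-204 has no 31-base stretch of its own and Nr3c1-203 has 108, so the split between them was not read as a measurement of the mice.

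Splice forms that change the DNA-binding domain hold 31-base stretches that the other forms of the gene lack. In Nr3c1-202 and Nr3c1-208, 3 coding bases (1 codon) are added between the zinc fingers, a form known as the gamma form of the glucocorticoid receptor, and 32 stretches of 31 bases occur in both and in no other *Nr3c1* transcript. Together Nr3c1-202 and Nr3c1-208 were assigned 171 to 597 counts, on average 21.7% of the gene's counts and 39.1% of its TPM. Their TPM share was 38.2 ± 10.8% in females and 40.0 ± 8.08% in males (SD, n = 4; exact permutation p = 0.886). This grouping was made after the values were seen. Nr3c1-202 alone has no stretch of its own and Nr3c1-208 has 337, so the counts of the pair need not cover the added codon. Between the blocks of a mouse their single shares differed by up to 9.42 and 12.8 percentage points.

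*Nr3c2* has a similar form. Nr3c2-201 adds 12 coding bases (4 codons, chr8:77085667-77085678, from codon 633), between the zinc-binding cysteines at codons 623 and 639, and has 41 31-base stretches of its own. It is shown beside Nr3c2-203 at the junction that holds these bases (additional bases in capitals):
Nr3c2-201: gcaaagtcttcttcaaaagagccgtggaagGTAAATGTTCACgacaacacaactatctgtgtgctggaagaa
Nr3c2-203: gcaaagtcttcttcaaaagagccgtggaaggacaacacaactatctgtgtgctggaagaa
Nr3c2-201 held 67.2, 57.0, 149 and 71.7 counts in females and 22.3, 71.9, 78.1 and 97.2 in males. Only 41 of its 2925 stretches are its own, so the counts of Nr3c2-201 need not cover the additional bases. The blocks of a mouse differed by up to 22.1 percentage points in its share, with 11.2 and 56.0 counts in blocks 1 and 2 of female 1. Its share of the gene's TPM was 23.9 ± 10.6% in females and 15.5 ± 8.06% in males (exact permutation p = 0.314, adjusted p = 0.771). Female 2, at 39.8%, stood well above the other 3 females, whose shares ran from 17.3 to 19.5%.

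*Esr2* counts were too few for shares. Esr2-203 and Esr2-204, the second annotated as subject to nonsense-mediated decay, held at most 11.0 and 19.1 counts a mouse. Esr2-201 held 9.09 counts in female 3 and 0 in the other mice. Esr2-202 and Esr2-205 were at 0 in all 8 mice. For *Gper1*, the coding transcript Gper1-201 held on average 93.2% of counts, and the 492-base Gper1-202 held at most 4.62 counts but 74.9% of the gene's TPM in female 2.

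Nuclear receptors are paralogs, so it was asked whether their reads could be confused. The coding bases of the first zinc finger are shown for 3 of them, with the P box, the stretch that reads the DNA element, in capitals:
Esr1-204: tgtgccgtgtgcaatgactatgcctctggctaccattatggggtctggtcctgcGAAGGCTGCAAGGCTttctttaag
Esr2-203: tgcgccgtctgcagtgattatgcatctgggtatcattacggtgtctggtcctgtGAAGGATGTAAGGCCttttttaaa
Pgr-204: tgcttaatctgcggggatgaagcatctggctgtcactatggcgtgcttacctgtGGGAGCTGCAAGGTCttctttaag
Of these 78 bases, *Esr1* shares 63 with *Esr2* and 50 with *Pgr*. The longest run of bases common to transcripts of any 2 of the 6 genes is 24, between *Pgr* and *Nr3c2*, and lies under the 31 bases that kallisto matches. No 31-base stretch is shared between members. *Nr3c2* shares 187 of its 6553 stretches with Gm10649, an antisense gene at its start, and *Esr2* shares 2.04% of its stretches with other genes.

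After the mean of each sex was removed, the 15 pairs of receptor genes had Pearson's r of log2 CPM from -0.71 to 0.74 over 8 mice. Of these, 1 pair had an unadjusted p under 0.05. *Esr1* with *Esr2* gave the highest value (r = 0.74, exact permutation p = 0.0278 within sexes; Spearman's rho = 0.76, exact permutation p = 0.0521), but the relation did not pass after adjustment over 15 pairs (adjusted exact p = 0.417). Without the 2 mice farthest from the median of *Esr1* it was 0.76 (exact permutation p = 0.222). *Esr2* rests on 3 to 20 counts, and no more was read from this pair.

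The lowest value was between *Esr1* and *Nr3c1* (r = -0.71, exact permutation p = 0.116; rho = -0.36, exact permutation p = 0.469), and without the 2 farthest mice it was -0.44. No relation between *Pgr* and *Esr1* was detectable with 8 mice (r = 0.06, exact permutation p = 0.903; rho = 0.14, exact permutation p = 0.785), although r was 0.95 in the 6 mice left without the 2 farthest (exact permutation p = 0.0278, adjusted exact p = 0.417). *Nr3c1* and *Nr3c2* gave r = -0.17 (exact permutation p = 0.620) and rho = -0.60 (exact permutation p = 0.189).

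**Figure D5:**
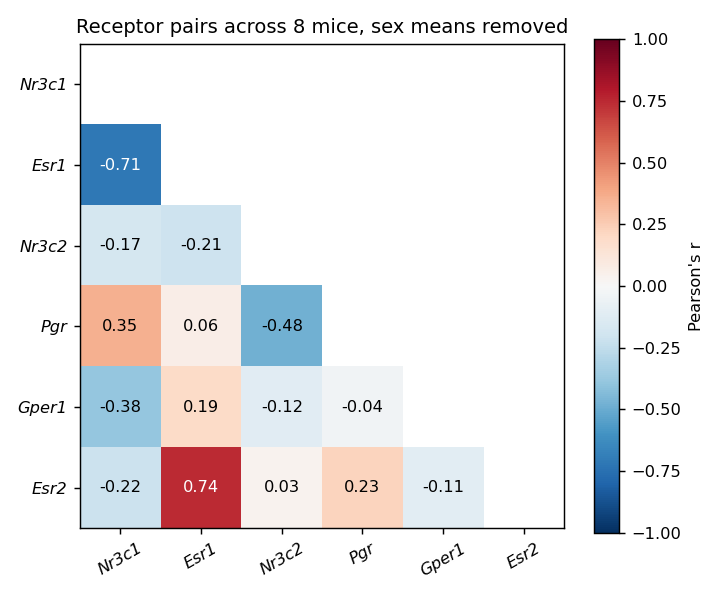
Pearson's r of log2 CPM for the 15 pairs of receptor genes over 8 mice with sex means removed (colour scale -1 to 1). The highest is 0.74 (*Esr1* with *Esr2*) and the lowest -0.71 (*Esr1* with *Nr3c1*). None passed after adjustment.

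The receptors were also set against 5 cell type marker lists, 30 relations in all. None had an unadjusted exact p under 0.05. The closest was *Gper1* with the 4 endothelial genes (r = 0.74, exact permutation p = 0.0642, adjusted exact p = 0.868; rho = 0.69, exact permutation p = 0.0868), with r = 0.84 without the 2 farthest mice. *Nr3c2* with the 5 astrocytic genes followed (r = -0.80, exact permutation p = 0.125; rho = -0.71, exact permutation p = 0.0747), at -0.41 without the 2 farthest mice. Pooled over the sexes, for the 25 relations in which the sexes overlapped in both measures, that relation passed (r = -0.88, exact permutation p = 0.00188, adjusted exact p = 0.0471; rho = -0.79, exact permutation p = 0.0279). The pooled value includes the difference of both measures between the sexes, and within sexes the relation did not pass.

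The protein-coding genes whose log2 CPM most resembled each receptor over all 8 mice, among 11587 compared, are given as a description. For *Esr1* they were *Oxtr*, the oxytocin receptor (r = 0.97), *Zfp385b* (0.97) and *Zkscan8* (0.97), where the 8 points include the sex difference. For *Pgr* they were *Dnajb2*, *Pex14* and *Slc39a6* (0.97, 0.97 and 0.96). For *Nr3c1* they were *Npcd*, *Stx7* and *Rab1a* (0.99, 0.98 and 0.97), and for *Nr3c2* *Cep295*, *Fam49a* and *Zkscan2* (0.98, 0.97 and 0.97).

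Unliganded steroid receptors are held by heat shock protein complexes. All 15 chaperone and cochaperone genes were tested and none passed, while 5 had an unadjusted p under 0.05, against 20.5% of all genes. Their median log2 difference was -0.12, beside -0.0043 over all genes, and 1 of 15 was higher in females, against 49.4% of all genes. *Hspa8*, *Hsp90ab1* and *Hsp90aa1* were the most abundant (3326, 2950 and 2105 TPM). *Fkbp4*, a cochaperone that promotes receptor activity, had a log2 difference of -0.34 (SE 0.111, edgeR adjusted p = 0.158) and *Dnajb1* -0.49 (SE 0.186, edgeR adjusted p = 0.200).

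Coactivators and corepressors are recruited by the bound receptor. None of 15 coactivator genes passed (median 0.11), with *Trrap* at 0.29 (SE 0.100, edgeR adjusted p = 0.174) and the abundant *Ddx5* (1481 TPM) at -0.13. None of 10 corepressor genes passed (median 0.06), with *Nrip1*, which represses estrogen receptor activity, at -0.40 (SE 0.136, edgeR adjusted p = 0.171) and *Ncor1* at 0.18 (SE 0.063, edgeR adjusted p = 0.174).

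Genes that estrogen is known to induce moved in both directions. Of 8 tested, 2 passed the adjusted edgeR test, 1 each way, against 0.158% of all genes. At an unadjusted p under 0.05 there were 6 of 8, against 20.5% of all genes. Of the 8, 6 were lower and 2 higher in females, against 49.4% of all genes higher in females. The list was chosen with earlier results of these data known, so these shares are a description. *Oxtr* rose in females, from 6.20 ± 0.242 CPM in males to 26.9 ± 8.48 in females (log2 2.12, SE 0.215, edgeR adjusted p = 0.00655). *Gal*, which encodes the neuropeptide galanin, fell, from 38.2 ± 5.24 in males to 16.8 ± 3.76 (log2 -1.19, SE 0.175, edgeR adjusted p = 0.0448). *Greb1*, a classical estrogen receptor target, stood at 18.6 ± 4.94 CPM in males and 9.15 ± 2.12 in females without overlap (log2 -1.02, SE 0.238, edgeR adjusted p = 0.0912). The list median was -0.33, and *Pgr* is one of its 8 genes. So is *Nrip1*, which is also one of the corepressor genes above. *Ctsd*, the most abundant at 468 TPM, is a lysosomal gene also expressed by microglia, and its log2 difference was -1.12 (SE 0.453, edgeR adjusted p = 0.219).

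None of 14 corticosteroid-responsive genes passed, while 5 had an unadjusted p under 0.05, against 20.5% of all genes. Of the 14, 12 were lower and 2 higher in females, against 49.4% of all genes higher in females. Their median was -0.33. The lowest values were of *Cdkn1a* at -1.38 (SE 0.505, edgeR adjusted p = 0.189) and *Nfkbia* at -1.11 (SE 0.394, edgeR adjusted p = 0.180), whose sexes overlapped. The smallest p values were those of *Dusp1* at -0.62 (SE 0.169, edgeR adjusted p = 0.118) and *Klf9* at 0.26 (SE 0.089, edgeR adjusted p = 0.166). *Fkbp5*, an inhibitor of the glucocorticoid receptor that glucocorticoids induce, was at -0.32 (SE 0.131, edgeR adjusted p = 0.220). *Fkbp5* is also one of the chaperone and cochaperone genes above, so these lists overlap. None of the 3 tested genes of corticosteroid conversion passed. *Hsd11b1*, which regenerates active glucocorticoid, stood at 0.737 ± 0.097 CPM in females and 1.37 ± 0.409 in males with no overlap (log2 -0.85, SE 0.388, edgeR adjusted p = 0.251). *Hsd11b2*, which inactivates glucocorticoid and so leaves the mineralocorticoid receptor to aldosterone in some cells, was at 0.222 to 1.35 CPM and was not tested. None of 9 tested genes among estrogen-related and membrane steroid receptors passed (median 0.0013). *Pgrmc1*, a membrane-associated progesterone-binding protein, was the most abundant at 398 TPM, above *Nr3c1*, and *Paqr9* came nearest (0.38, SE 0.129, edgeR adjusted p = 0.173).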

How the data were processed

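RNA of sorted TN SST neurons from 4 female and 4 male mice was sequenced single-end from total RNA with a stranded kit. The authors mapped reads to the mouse transcriptome (mm10) with kallisto 0.46.2, and the submitters' processing notes also name DESeq2 2.11.40.6. Deposited files give, per transcript, estimated counts and TPM in 2 blocks whose nature was not given in the sources used here. Estimated counts of both blocks were summed, TPM was averaged (each block sums to 1000000), and 116728 of 118489 transcripts were joined to 35968 genes with GENCODE M21. The unmatched ones held 0.429 to 0.611% of counts.

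Gene counts were rounded and tested with edgeR 4.0.16 (quasi-likelihood, TMM factors, filterByExpr, R 4.3.3), adjusted by Benjamini-Hochberg over 15194 genes at a threshold of 0.05. Shares, ratios and relations used exact 2-sided permutation or sign-flip tests (scipy 1.17.1, numpy 2.4.6). With 4 against 4 mice these cannot give p below 0.0286, over 8 sign flips 0.00781, and within sexes 0.00174. Log2 CPM used a prior count of 2. The SE given for edgeR was derived as the absolute log2 difference divided by the square root of the F statistic. A detection floor of 3 counts corresponds to 0.148 to 0.458 CPM.

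The members and gene lists were chosen with earlier results of these data known. Genes were named by rule: all receptors, then for each list mainly the genes past the threshold or those with the smallest p, with abundant ones added, and for each receptor with at least 20 counts in every mouse the 3 protein-coding genes of highest r among those with at least 5 CPM. *Hsd11b2*, *Greb1*, *Fkbp5*, *Snap25*, *Cdkn1a*, the shorter transcripts and the transcript groups were singled out after their values were seen. Alternatives were DESeq2 1.42.0 (on all genes, and on the filtered genes as an addition made after the first result was seen), RLE normalization, no filter, at least 10 counts in at least 4 mice, each block alone, protein-coding transcripts alone, marker covariates, a replicate block and each mouse left out. Sequences came from GENCODE M21 transcripts and from RefSeq promoters (GRCm38.p6), in which 5 of the 6 genes matched. A further coding sequence is not reported here.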

Additional observations from a re-analysis of the deposited data

Results flagged for a closer look

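In 3 of 68 groups of 4 mice examined, a library stood apart by Dixon's criterion at the 95% level, and chance gives about 1 in 20. *Esr1* in females stood apart at 73.4 TPM in female 4, against 52.4 to 54.9 in the other 3. Without female 4 the *Esr1* difference was 1.20 on the log2 scale (edgeR adjusted p = 0.0371). The share of *Nr3c2* TPM in Nr3c2-201 was 39.8% in female 2, and its cause was not tested. The ratio of *Pgr* to *Esr1* TPM was 1.30 in male 3, against 0.899 to 0.965 in the other males.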

How the results depend on the processing

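*Esr1* was higher in females under every alternative run. Its adjusted p rose above 0.05 with the neuronal marker mean as a covariate (1.38, no receptor gene called, a count of 0) and with a replicate block (1.33, edgeR adjusted p = 0.0683, a count of 0). Same-numbered mice did not deviate together (correlations -0.40, -0.16, 0.04 and 0.07), and 1 of 4 numbers correlated best with itself. With 4 mice a sex this cannot decide whether same-numbered mice were processed together, which was not given in the sources used here. Over mice left out, the difference ran from 1.20 to 1.44 and the count of receptor genes called from 0 to 1. The cause was not tested in any of these. DESeq2, run first on all genes, called 1020 in all, against 24 with edgeR, and *Esr1* alone among the 4 receptors for which it gave an adjusted p (3.76e-12). A run on the 15194 filtered genes, added after that result was seen, called 1052, again with *Esr1* alone among the same 4 (4.54e-12). Neither run gave an adjusted p for *Esr2* and *Gper1*. Over all genes edgeR called 1 with the replicate block, 8 with the neuronal and 14 with the microglial covariate, 415 without female 1, 411 without male 1 and 8 to 13 without any other mouse. *Esr2* and *Gper1* were not tested in either block alone, nor *Esr2* in protein-coding transcripts alone, where it had too few counts. No other receptor gene changed direction or passed in these fits of counts.

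Neighbours in the order that differed numbered 4 with protein-coding transcripts alone and 1 with transcripts of at least 1000 bases, against 2 (*Nr3c1* above *Esr1* did not pass in the latter), and in both *Pgr* stood above *Nr3c2*. The ratios that turned direction numbered 2, neither passing: *Nr3c2* to *Nr3c1* was 0.56 (log2, female minus male) with transcripts of at least 1000 bases, and *Gper1* to *Esr1* was -0.35 with protein-coding transcripts, -0.26 with transcripts of at least 1000 bases and -0.17 in block 1 alone, against 0.06. The shares and the pair relations gave no call under any alternative, and the marker relations gave 1, *Nr3c2* with the astrocytic genes, when pooled over the sexes (r = -0.88, permutation adjusted p = 0.0471), an alternative added after the data were seen. Depth limits *Esr2* and *Gper1*, at 3 to 33 counts a mouse.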
